A study of Mus musculus with 8 samples.

Results

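The regions described here are 613 places where ZFP281 summits were called in all 3 early lesion (EL) libraries and in no primary tumour (PT) library, inside a protein-coding gene and farther than 5 kb from the boundaries of all protein-coding genes. They were selected on the presence and absence of summit calls: the summits of 6 lists were merged into 19317 regions, joining summits at most 200 bp apart, and each region was placed against the RefSeq genes of mm10. Summits in all 3 EL libraries and none of the 3 PT libraries marked 1937 regions, 10% of all; 613 of those (31.6%) were distal and inside genes. Among the 5493 distal regions inside genes, these 613 made up 11.2%, whereas 281 had a summit in all 6 libraries (called shared below) and 51 (0.928%) had one in all 3 PT libraries and no EL library. Because the calls themselves chose the regions, their presence in EL and absence in PT is a description and carries no test.

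The EL libraries came from mammospheres of FvB MMTV-HER2/Neu mice aged 14 to 18 weeks without a palpable tumour, from tissue that the labels call mammary lung. The PT libraries came from mammospheres grown from breast tumours of mice of the same strain and transgene, older than 20 weeks. The transgene, which all groups carry, places the Neu receptor tyrosine kinase under the mouse mammary tumour virus promoter, active mainly in mammary epithelium; the labels call the cells of both groups breast cancer cells. Digested tissue was grown for 7 days on ultra-low adhesion plates, and each group has 3 biological ZFP281 ChIP-seq replicates; the 1 input per group was not analysed here. How many mice went into a replicate is not given in the sources used here, and summit lists hold no expression by which the cell type could be checked.

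ZFP281 is a zinc finger transcription factor that binds G-rich DNA. In mouse embryonic stem cells it is known for regulating pluripotency genes, and its human counterpart ZNF281 has been described as an inducer of the epithelial-mesenchymal transition (EMT), in which epithelial cells lose junctions and gain motility. Binding far from gene boundaries is often found at enhancers, stretches of DNA that act on a promoter over a distance; whether the regions here act as enhancers was not measured.

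The sequences used here are those around annotated transcript starts: 10 of the 613 regions had an EL summit inside a window of 250 bases before to 50 bases after a RefSeq start, an internal or alternative start of the host gene in most cases, and 14 such windows were involved. In 8 of the 10 (Sh2d6, Pde10a, Epb41l3, Ppfia4, Synj2, Rusc2, Septin9 and Smim14) all 3 EL summits fell in the same window. The 3 windows below hold all 3 EL summits together with the G-rich core GGGAGGG, or CCCTCCC where it lies on the other strand; they are shown because the G-rich core is the kind of sequence ZFP281 is known to bind. All are RefSeq sequence of mm10 (GRCm38.p6), 5′ to 3′ on the gene's strand, with each core in capitals. Pde10a (a phosphodiesterase) lies at chr17:8801495-8801794 on the plus strand, with EL summits at bases 111, 97 and 9 of the window in replicates 1, 2 and 3. Epb41l3 (a membrane-cytoskeleton adaptor) lies at chr17:69156494-69156793 on the plus strand, with summits at bases 190, 109 and 227. Rusc2 lies at chr4:43406252-43406551 on the plus strand, with summits at bases 62, 135 and 178.

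Pde10a: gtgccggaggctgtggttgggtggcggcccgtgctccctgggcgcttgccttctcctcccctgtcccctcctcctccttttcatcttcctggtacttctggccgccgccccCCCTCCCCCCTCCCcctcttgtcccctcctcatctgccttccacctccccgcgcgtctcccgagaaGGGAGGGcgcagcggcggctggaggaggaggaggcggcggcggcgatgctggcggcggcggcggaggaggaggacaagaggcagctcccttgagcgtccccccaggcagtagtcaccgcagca

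Epb41l3: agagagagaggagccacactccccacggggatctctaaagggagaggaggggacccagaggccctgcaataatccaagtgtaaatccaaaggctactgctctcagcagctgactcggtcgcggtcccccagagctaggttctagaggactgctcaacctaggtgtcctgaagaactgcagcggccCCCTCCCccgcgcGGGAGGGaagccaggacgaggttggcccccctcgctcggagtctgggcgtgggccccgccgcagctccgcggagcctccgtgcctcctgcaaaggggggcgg

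Rusc2: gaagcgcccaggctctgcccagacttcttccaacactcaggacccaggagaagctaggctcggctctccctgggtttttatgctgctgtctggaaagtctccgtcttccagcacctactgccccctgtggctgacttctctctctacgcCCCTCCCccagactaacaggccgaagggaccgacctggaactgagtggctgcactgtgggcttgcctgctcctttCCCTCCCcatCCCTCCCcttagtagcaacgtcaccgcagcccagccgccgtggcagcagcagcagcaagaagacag

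In Pde10a the core nearest a summit was 1 base away, and 2 of its 3 cores adjoin in a pyrimidine-rich run. In Epb41l3 a summit fell within a core, and in Rusc2 the nearest core was 15 bases from a summit. Other windows held their summits without the core close by, as 2 stretches cut to the summits and 30 bases on either side show. The Sh2d6 stretch, chr6:72520058-72520147 on the minus strand, has a run of C around its summits, and its only core lies 116 bases from a summit, outside the stretch. The Synj2 stretch, chr17:5975492-5975608 on the plus strand, has none, nor does its whole window.

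Sh2d6: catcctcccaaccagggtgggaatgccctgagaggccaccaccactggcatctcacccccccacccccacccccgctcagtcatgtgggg

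Synj2: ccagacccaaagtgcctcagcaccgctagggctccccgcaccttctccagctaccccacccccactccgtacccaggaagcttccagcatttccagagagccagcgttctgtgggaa

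GGGAGGG, searched on both strands, was found in 7 of the 14 windows (50%), against 22 of the 30 windows that hold a summit of a shared distal region (73.3%) and 21.9% of all 32817 windows in the table. The longer GGGGAGGGG, which contains it, was in 5 of 14 (35.7%), against 18 of 30 (60%) for shared regions and 6.37% of all windows. That motif with a further G at its 5′ end was in 3 of 14 (21.4%), against 18 of 30 (60%) and 3.27%. The median GC content was 63.7% in the 14 windows and 66.7% in the 30. That of all windows is not given here, and the part of base composition in these shares was not tested. The 14 windows hold 10 of 613 regions and share symbols and overlaps, so the counts describe those windows and not the 613 regions. The remaining regions' sequence was not used here.

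The 613 regions were narrow, and each had exactly 1 summit in each EL list. From the first to the last summit they spanned a median of 72 bp (range 2 to 283 bp), and 430 spanned at most 100 bp. They lay a median of 24569 bp from the nearest protein-coding boundary (5019 to 397950 bp), in host genes with a median length of 113426 bp; all genes with room for such a region had a median length of 33671 bp. At the edge of the rule, the region nearest its limit lay 5019 bp from a boundary, in Niban2 (chr2:32881153-32881203), and the nearest EL-only region left out lay 4999 bp away, in Timp2 (chr11:118327251-118327361). Next came Syde2 at 5030 bp; the farthest were Robo1, which encodes a Slit receptor, at 397950 bp and the zinc finger repressor gene Zbtb20 at 372862 bp. Along the 459 regions whose host gene has a known strand, the median place was 45.2% of the way from start to end, and 42.5% for shared regions.

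Summit scores placed these regions around the middle of the lists of EL replicates 1 and 3 and higher in that of EL replicate 2, and below the shared regions in all 3. The score is the authors' value for each summit, read here as −log10 of a q-value, and it was turned into a percentile within its own list because the lists differ in length. EL replicates 1, 2 and 3 list 8588, 15770 and 7055 summits, whereas the PT lists are shorter, with 2897, 4030 and 6033 summits in replicate order. The median percentile of the 613 regions was 53.6, 74.3 and 48.9 in EL replicates 1, 2 and 3; that of the 281 shared regions was 84.5, 91.2 and 76.0 in the same libraries. EL replicate 2, the longest list, gave the highest percentile in 469 of the 613 regions. In the library where a region was weakest it stood at a median percentile of 36.6; 12 regions were at or above 90 in all 3 EL libraries, 39 at or above 80, and 76 were below 10 in at least 1. The ranks of the 613 regions moved together between EL libraries, with Spearman correlations of 0.63, 0.55 and 0.62 for replicates 1 and 2, 1 and 3, and 2 and 3, a description over regions that were called in all 3.

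**Figure D1:**
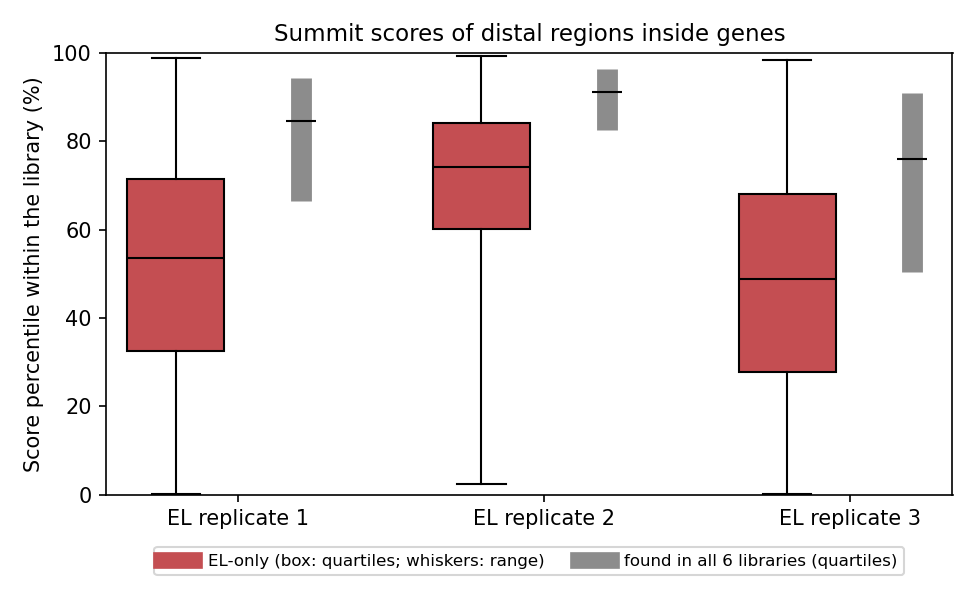
Percentile of the summit score within each EL library (y axis, percent) for the 613 EL-only distal regions inside genes (red boxes: quartiles and median, whiskers to the lowest and highest) and the 281 distal regions inside genes found in all 6 libraries (grey bars: quartiles, black line: median). The red medians, 53.6, 74.3 and 48.9, lie below the grey ones, 84.5, 91.2 and 76.0.

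The strongest region lay in Plxna1 (chr6:89345084-89345124), which encodes a semaphorin receptor. Its scores were 77.3, 139 and 60.7 in EL replicates 1, 2 and 3, percentiles 98.8, 99.4 and 98.4. It was not far from PT signal: PT replicate 3 had a summit 408 bp away at the 84.8th percentile of its list and PT replicate 2 one 496 bp away at the 77.2nd. Slc6a7, a proline transporter gene, came next (chr18:61001400-61001452), with scores of 62.7, 112 and 55.4 in EL and the nearest PT summit 11700 bp away. Cbfa2t3, a gene for an ETO-family corepressor, followed (chr8:122661344-122661352), with scores of 47.4, 91.6 and 34.0, its 3 EL summits within 9 bp and a PT summit 4433 bp away. These 3 regions were high in every EL library.

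The other 7 of the 10 highest-ranked regions had percentiles between 90.9 and 98.4 in every EL library. They lay in Lsp1 (an F-actin-binding protein of leukocytes), Kctd10 (a Cullin3 adaptor), Septin9 (a filament-forming GTPase), Tpst1 (a tyrosylprotein sulfotransferase), Acot11 (an acyl-CoA thioesterase), Ror2 (a Wnt5a receptor) and Adamts2 (a procollagen N-proteinase). The Ror2 region (chr13:53205391-53205438) scored 56.0, 74.3 and 29.6 in EL replicates 1, 2 and 3, with no PT summit within 229146 bp. The Tpst1 region (chr5:130121085-130121117) scored 33.4, 81.9 and 32.7, with none within 234276 bp, and the Adamts2 region (chr11:50665055-50665089) scored 36.3, 65.7 and 28.9, with none within 118273 bp. Kctd10 and Acot11 had a PT summit closer, 7820 and 7847 bp away, and Septin9 8656 bp away.

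The rule left out every region merged with a PT summit, and no distance for other EL summits is given here for comparison. Among the 613 regions the median distance to the nearest PT summit was 57405 bp. A PT summit lay within 10 kb of 107 regions, within 5 kb of 53 and within 1 kb of 15 (2.45%). For those 15 the split between EL-only and not turns on distances between summits under 1 kb. At Rara, which encodes retinoic acid receptor alpha, the EL summits at chr11:98954603-98954698 (percentiles 87.3, 80.2 and 86.6) had summits of all 3 PT libraries 452 to 474 bp away, at percentiles 64.3, 91.3 and 86.1 in PT replicates 1, 2 and 3. The same held at Bahcc1 (chr11:120240385-120240395), with PT summits 285 to 388 bp away. Chd9, a chromatin remodeller gene, had the PT summits of all 3 libraries 973 to 994 bp away. Actn4 (alpha-actinin 4) held 2 of the 15 regions, with PT summits 394 to 514 bp from them in replicates 2 and 3. Which of the 15 are the same bound site with a displaced summit was not tested.

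The 523 host genes were 3.79% of the 13809 protein-coding genes with room for such a region, and longer genes were hosts more often. Of genes up to 20 kb, 23 of 3778 (0.609%) were hosts, against 154 of 990 (15.6%) of those over 200 kb. A single region lay in 435 hosts, 2 in 69, 3 in 16, 4 in 2 and 5 in 1 host. Hosts were counted gene by gene, and 6 regions lay in more than 1 overlapping gene. The region at chr18:37172335-37172438 was counted for every overlapping gene of the protocadherin alpha cluster. Several of these genes are over 200 kb, among them Pcdha1, so this region raises the host counts and the share over 200 kb. The 88 genes with at least 2 regions held 199 of the 613, and the closest pair of regions in such a gene lay a median of 21.6 kb apart, under 5 kb in 13 genes.

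Tns1, the gene of tensin 1, which links integrins to actin, had the most regions: 5 within 77.0 kb of its 214 kb. The highest (chr1:74025763-74025794) stood at percentiles 72.2, 82.5 and 69.8 in EL replicates 1, 2 and 3. Within the gene and 5 kb on each side, EL replicates 1, 2 and 3 had 9, 12 and 7 summits, and PT replicates had 0, 0 and 1. Reep3, which encodes a protein of the endoplasmic reticulum, had 4 regions within 31.8 kb and 6 summits in each EL library, against 1, 2 and 1 in PT replicates 1, 2 and 3; 1 further region in the gene was shared by all 6 libraries. Prkce, the gene of protein kinase C epsilon, had 4 regions spread over 234 kb, with 7, 13 and 7 EL summits in the gene and its flanks, against 1, 3 and 2 PT summits. The 3 regions of Creb3l1, a gene for a membrane-bound transcription factor of the secretory pathway, lay within 10.1 kb, and neither the gene nor its flanks had a PT summit (6, 7 and 4 EL summits). Lsp1 had 3 regions within 10.5 kb.

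**Figure D2:**
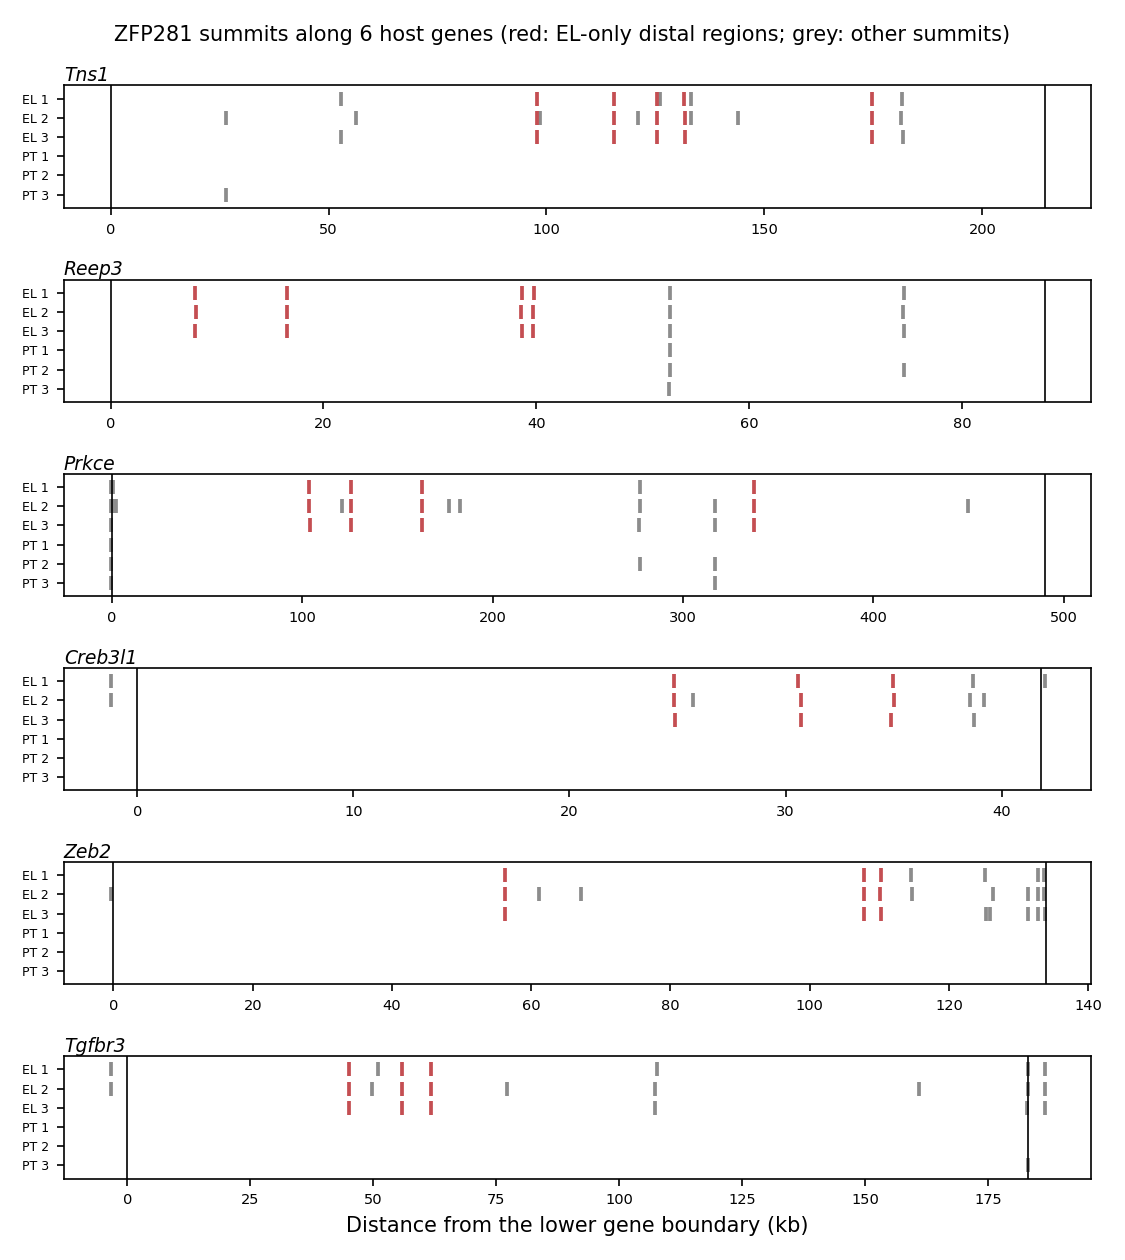
ZFP281 summits along 6 host genes, in kb from the lower-coordinate gene boundary (x axis), with 1 row per library, EL rows above PT rows; vertical lines mark the gene's 2 boundaries. Red ticks are the EL-only distal regions and grey ticks all other summits within the gene or 5 kb of it. Zeb2 and Creb3l1 have no PT tick, Tgfbr3 and Tns1 have 1 each, and Reep3 and Prkce have PT ticks beside their EL-only regions.

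Among gene groups, genes of integrins and focal adhesion, of collagens and matrix, and dormancy-associated genes had the highest shares of hosts. Of 38 integrin and focal adhesion genes with room, 10 (26.3%) held at least 1 region, with 17 regions in all or 4.79 per Mb of eligible sequence, against 0.717 per Mb over all genes. These included Itgb3 (integrin beta 3, chr11:104625226-104625315, percentiles 71.9, 90.4 and 74.9 in EL replicates 1, 2 and 3), Tns1 and Bcar1 (the focal adhesion scaffold p130Cas, chr8:111733980-111734018, 56.7, 67.0 and 56.8). Tns2, Itgb5, Actn4, Itga9, Tns3 and Itgb2 were also among them. A distal region with a summit in at least 1 PT library lay in 13 of the 38 genes (34.2%), against 8.62% of all genes with room. Itgb3 was above 70 in all 3 EL libraries; Bcar1 sat in the middle of each list.

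Of 58 collagen and matrix genes, 14 (24.1%) were hosts, at 2.98 regions per Mb. The highest were Eln (elastin, chr5:134735204-134735237, percentiles 72.8, 88.1 and 86.6 in EL replicates 1, 2 and 3), Col7a1 (the anchoring fibril collagen, chr9:108978416-108978432, 73.7, 85.1 and 72.3), Col27a1 (a fibrillar collagen, chr4:63229092-63229105, 90.03, 92.7 and 65.1) and Fbn1 (fibrillin 1 of elastic microfibrils, chr2:125480203-125480298, 71.2, 89.5 and 62.6). Basement membrane genes were among the rest: Lamc1, Lama2, Hspg2, Col4a1, Col4a2 and Col18a1. Shared distal regions lay in 2 of the 58 genes (3.45%), against 1.83% of all genes with room, and 11 (18.97%) held a distal region with a summit in at least 1 PT library, against 8.62% of all genes with room. Fibroblast and adipocyte markers, counted as genes of another cell type, had 2.87 EL-only distal regions per Mb, from only 3 regions in 2 of 19 genes. That is near the level of the matrix list, with which the marker list shares 4 symbols, 0 of them hosts. EMT and mesenchymal genes had 4.17 per Mb, Notch genes 3.43, Wnt genes 3.13, TGF-beta and BMP genes 2.34 and Hippo genes 2.07. The part of fibroblast genes in the matrix list's regions was not tested.

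Of 24 EMT and mesenchymal genes, 4 (16.7%) were hosts, against 3.79% of all genes with room. A distal region with a summit in at least 1 PT library lay in 3 of the 24 (12.5%), against 8.62% of all genes with room. Zeb2, a repressor of E-cadherin, had 3 regions and no PT summit in or within 5 kb of the gene; its highest (chr2:45039699-45039721) stood at only 40.4, 65.0 and 43.8 in EL replicates 1, 2 and 3. Itgb3 had the highest scores in the group, while Tcf4, a basic helix-loop-helix factor gene, and Pdgfrb, a platelet-derived growth factor receptor gene that is also in the fibroblast marker list, had 2 regions each. The higher region stood at 52.3, 57.1 and 63.8 in Tcf4 and at 24.8, 67.7 and 18.8 in Pdgfrb. The TGF-beta and BMP pathway had 3 hosts of 32 (9.38%): Tgfbr3 (betaglycan, the coreceptor), Smad3 (a receptor-activated SMAD) and Smad7 (an inhibitory SMAD). Of these 32 genes, 3 (9.38%) held a shared distal region. A distal region with a summit in at least 1 PT library lay in 7 (21.9%). The strongest of 3 regions in Tgfbr3 (chr5:107162390-107162402) had percentiles of 94.6, 93.6 and 81.2 in EL replicates 1, 2 and 3 and lay 127130 bp from the nearest PT summit. Smad3 (chr9:63677994-63678098) had 53.6, 76.3 and 55.8, and Smad7 (chr18:75378748-75378843) had 68.5, 76.7 and 21.7.

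Of 22 dormancy-associated genes, 5 (22.7%) were hosts: the retinoid receptor genes Rxra, Rara and Rarb, Tgfbr3, and Mertk, a receptor tyrosine kinase gene of the Axl family. Rxra (chr2:27740183-27740237) stood at 89.9, 88.5 and 87.0 in EL replicates 1, 2 and 3, while Rarb (chr14:16554880-16554943) stood at 43.9, 16.1 and 13.8. The 3 retinoid receptor genes are also in the nuclear receptor list, whose 34 genes had no other host. In this dormancy group 6 genes (27.3%) also held a shared distal region, against 1.83% of all genes with room. A distal region with a summit in at least 1 PT library lay in 9 (40.9%), against 8.62% of all genes with room, so its share was above that background for PT summits too.

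Wnt, Notch and Hippo genes gave 7 of 37 (18.9%), 3 of 17 (17.6%) and 3 of 21 (14.3%) hosts, against 3.79% of all genes with room. A distal region with a summit in at least 1 PT library lay in 5 (13.5%), 5 (29.4%) and 6 (28.6%) of them. Over all genes with room that share was 8.62%, so all 3 groups were above the background for PT summits too. The Wnt hosts were the receptor genes Ror2 and Ror1, the ligand Wnt5b, the secreted Dickkopf-family gene Dkk3, the nuclear factor Tcf7l1, and Axin2 and Apc of the beta-catenin destruction complex; Ror2 was at percentile 91.0 or higher in each EL library, and the lowest EL percentile of the remaining 6 ranged from 2.40 in Wnt5b to 63.8 in Dkk3. The Notch hosts were the receptor Notch1 and the coactivators Maml2 and Maml3, whose lowest EL percentiles were 40.4, 23.7 and 63.1 in that order. The Hippo hosts were the coactivator Yap1 (22.6, 53.2 and 32.6 in EL replicates 1, 2 and 3), its DNA-binding partner Tead3 and the angiomotin gene Amotl1. The highest percentile of the 3 Hippo regions in any EL library was the 53.2 of Yap1 in replicate 2.

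Of 56 plexin, semaphorin and axon guidance genes, 9 (16.1%) were hosts, against 3.79% of all genes with room. These genes are long (median 119242 bp), and per Mb their regions were close to the level over all genes, 0.873 against 0.717. The guidance genes included Plxna1, the netrin receptor gene Unc5b (chr10:60815064-60815127, percentiles 88.9, 93.8 and 78.4 in EL replicates 1, 2 and 3), the semaphorin gene Sema6d and Robo1. Of 45 chromatin regulators, 6 (13.3%) were hosts, against the same 3.79%. Among them were the SWI/SNF subunit genes Arid1a and Arid1b, the methylcytosine dioxygenase gene Tet1, the deacetylase gene Hdac7 and the demethylase gene Kdm6b. A distal region with a summit in at least 1 PT library lay in 12 of the 45 (26.7%), against 8.62% of all genes with room. Shared distal regions lay in 5 (11.1%), against 1.83%. In lists of equal length the group had 1 EL-only host and 1 PT-only host.

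Epithelial and receptor signalling genes were closer to the share of hosts over all genes, 3.79%. Distal regions with a summit in at least 1 PT library were more frequent in them than the 8.62% over all genes with room. Such regions lay in 11 of 29 epithelial junction and keratin genes (37.9%). They also lay in 5 of 18 mammary luminal genes (27.8%) and 8 of 35 ERBB and MAPK genes (22.9%). Of 29 epithelial junction and keratin genes, 2 (6.90%) were hosts, the polarity gene Pard3 and the tight junction gene Tjp1. Of 18 mammary luminal genes 1 was a host (5.56%), the oestrogen-regulated Greb1. Of 35 ERBB and MAPK genes 1 was a host (2.86%), Egfr. The 2 Egfr regions were at least 3054550 bp from any PT summit. The higher of them stood at percentiles of only 45.5, 55.9 and 14.2 in EL replicates 1, 2 and 3. Markers of other cell types that the spheres could hold were also counted: 2 of 19 fibroblast and adipocyte markers (10.5%, Ebf1 and Pdgfrb), 1 of 14 endothelial markers (7.14%, Pecam1), 0 of 15 leukocyte markers and 0 of 7 lung epithelial markers. A distal region with a PT summit lay in 0 of 19 fibroblast and adipocyte markers and 0 of 7 lung epithelial markers. One lay in 3 of 14 endothelial (21.4%) and 2 of 15 leukocyte markers (13.3%). The endothelial markers had 1.03 EL-only distal regions per Mb. The part of other cell types in these regions was not tested. Hosts counted in more than 1 list were Itgb3, Pdgfrb, Tgfbr3, Rara, Rarb and Rxra.

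**Figure D3:**
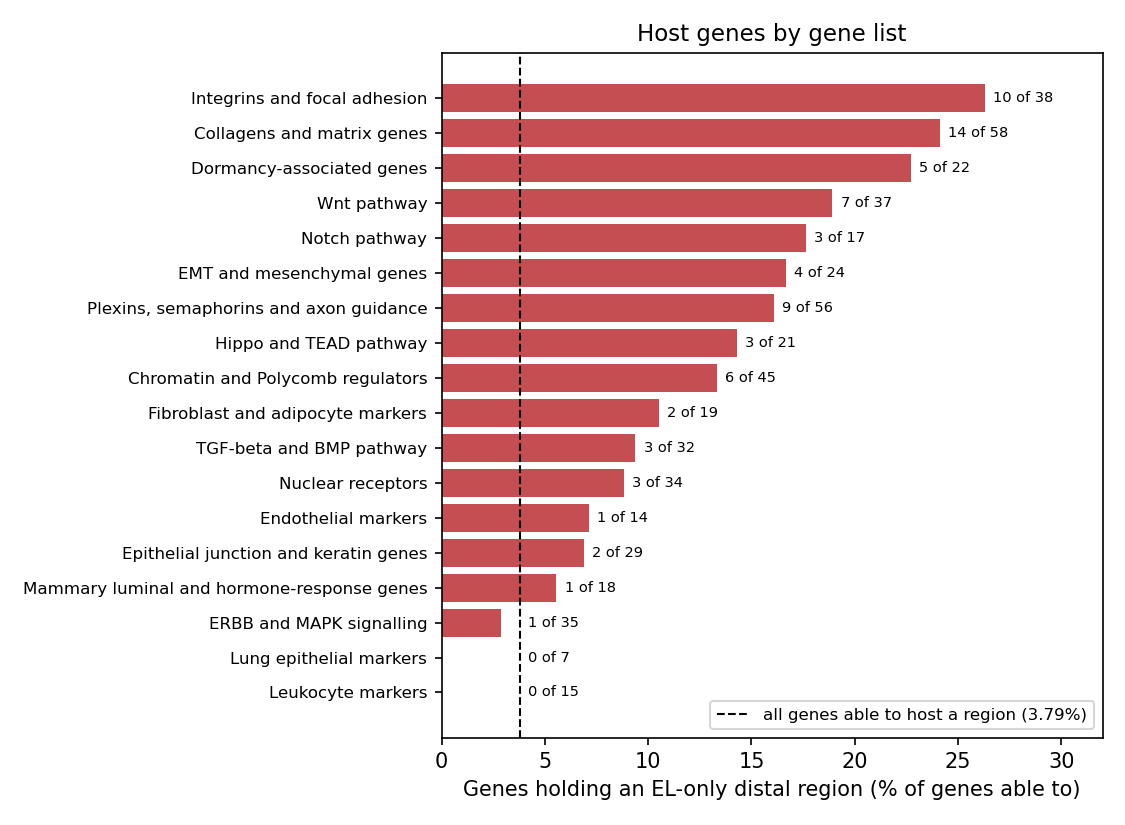
Share of genes in each list described that held at least 1 EL-only distal region (x axis, percent of the genes with room for one; numbers beside the bars are hosts of genes with room). The dashed line is the share over all such genes, 3.79%; integrin and focal adhesion genes (26.3%), matrix genes (24.1%) and dormancy-associated genes (22.7%) have the longest bars, and ERBB and MAPK genes, leukocyte markers and lung epithelial markers lie under the line.

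The EL lists are longer than the PT lists, so the rule was also run on the 2897 highest-scoring summits of each library. It then gave 149 EL-only, 118 PT-only and 157 shared distal regions inside genes. Of the 613 regions, 113 kept a summit in all 3 shortened EL lists, 78 in 2, 138 in 1 and 284 in none. The hosts of EL-only regions were then 1.01% of genes with room and those of PT-only regions 0.811%. The matrix list had 4 EL-only hosts (Eln, Col7a1, Col27a1 and Fbn1) and 0 PT-only hosts in the shortened lists. Integrin and focal adhesion genes had 3 EL-only hosts (Itgb3 and Tns1 among them) and 2 PT-only hosts (Actn4 and Src), and dormancy-associated genes had 2 (Rxra and Tgfbr3) and 3 (Gas6, Rara and Rarb). Nuclear receptor genes had 1 EL-only host (Rxra) and 3 PT-only hosts (Rara, Rarb and Thra), and Wnt genes 1 of each (Ror2 and Ror1). Notch genes had 0 EL-only hosts and 1 PT-only host, Notch4, ERBB and MAPK genes 0 and 1, Erbb2, and Hippo genes 0 of either.

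Over all summits, 26.1%, 28.9% and 25.2% of those in EL replicates 1, 2 and 3 were distal and inside a gene, against 21.9%, 23.7% and 23.0% in PT replicates 1, 2 and 3. The 95% Wilson intervals, which cover counting error only, were 25.2 to 27.1%, 28.2 to 29.6% and 24.2 to 26.2% for EL, whereas PT had 20.4 to 23.4%, 22.4 to 25.01% and 21.9 to 24.1%. Every EL library was above every PT library. The share averaged 26.7 ± 1.94% in EL and 22.8 ± 0.919% in PT (SD, n = 3 each), a difference of 3.89 percentage points with an exact two-sided permutation p of 0.1, the smallest that 3 against 3 libraries allow. The 613 regions enter this share, and by construction they raise EL alone. In lists of equal length the share was 22.1 ± 0.235% in EL and 22.1 ± 0.744% in PT, a difference of 0.0345 percentage points (exact permutation p = 0.9, n = 3 each).

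**Figure D4:**
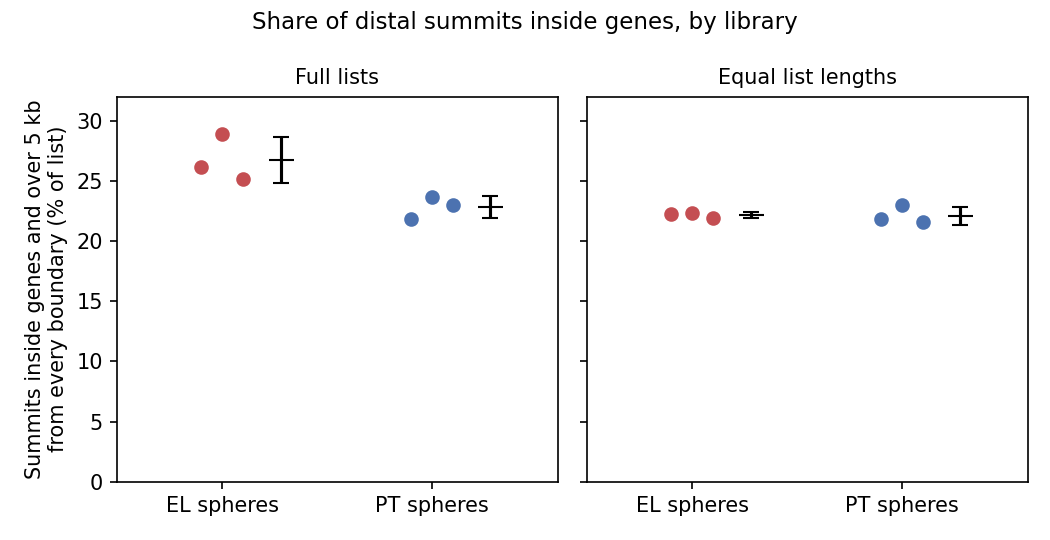
Share of each library's summits that were inside a protein-coding gene and over 5 kb from every boundary (y axis, percent), for EL spheres (red, left) and PT spheres (blue, right); points are libraries and black bars the mean ± SD (n = 3). In the full lists EL (26.7%) lies above PT (22.8%); in lists of 2897 summits each, both are at 22.1%.

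Close starts of any kind were rarer at these regions than at shared ones. Of the 589 regions on chromosomes covered by the table of starts, 33 (5.60%) lay within 1 kb of a RefSeq transcript start, 26 of them a start of the host gene, against 63 of 273 shared distal regions (23.1%), 2 of 51 PT-only distal regions (3.92%), 9.62% of all distal regions inside genes and 7.96% of EL-only distal regions between genes. Per library, 12.2%, 9.50% and 14.1% of distal summits inside genes in EL replicates 1, 2 and 3 lay within 1 kb of a start; the PT shares were 16.2%, 15.1% and 15.1% in replicate order. The group means were 11.9 ± 2.31% in EL and 15.5 ± 0.621% in PT (SD, n = 3 each; difference -3.54 percentage points, exact permutation p = 0.1). The 613 regions, of which few lie near a start, enter the EL denominators alone and by construction lower the EL share. Without them it was 14.4 ± 4.20% in EL and 15.5 ± 0.621% in PT, a difference of -1.05 percentage points (exact permutation p = 0.7, n = 3 each). Leaving them out by construction raises EL alone, so this comparison cannot decide whether the groups differ. In lists of equal length EL was the higher, 17.8 ± 0.415% against 16.7 ± 1.30% in PT (difference 1.08 percentage points, exact permutation p = 0.3, n = 3 each). The direction therefore turned with list length.

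Summits at the boundaries of the host genes did not enter the rule, which used the boundaries' positions alone. The boundaries carried summits more often in EL than in PT libraries with the full lists, while in lists of equal length the mean shares of hosts differed by 0.956 percentage points. A summit within 1 kb of either boundary was found at 126, 189 and 105 of the 523 hosts in EL replicates 1, 2 and 3 (24.1%, 36.1% and 20.1%), against 39, 57 and 91 in PT replicates 1, 2 and 3 (7.46%, 10.9% and 17.4%). In the other 13286 genes with room, a boundary summit was found at 15.4%, 23.9% and 13.4% in EL, against 6.82%, 8.66% and 12.8% in PT. No test of this is given, since the boundary summits come from the same contrast as the rule. All 3 EL libraries and no PT library marked a boundary of 23 hosts (4.40%), against 2.13% of all genes with room. The opposite was seen at 0 hosts, and its share over other genes is not given here. No library had a boundary summit at 312 hosts (59.7%), against 73.6% of the other genes with room. The highest-ranked of the 23 were Slc6a7, Wipf1 (an actin regulator that binds WASP), Lpar1 (a lysophosphatidic acid receptor), Sox5 (an SRY-box factor) and Niban2; Zeb2, Gli2, Tcf7l1, Ccnd2 and Ror1 were also among them, named here after their values were seen. Inside the hosts, 178 (34.0%) also held a distal region with a summit in at least 1 PT library, against 8.62% of all genes with room. These shares are not matched for gene length. Hosts had a median length of 113426 bp, against 33671 bp over all genes with room, and the part of length was not tested.

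**Figure D5:**
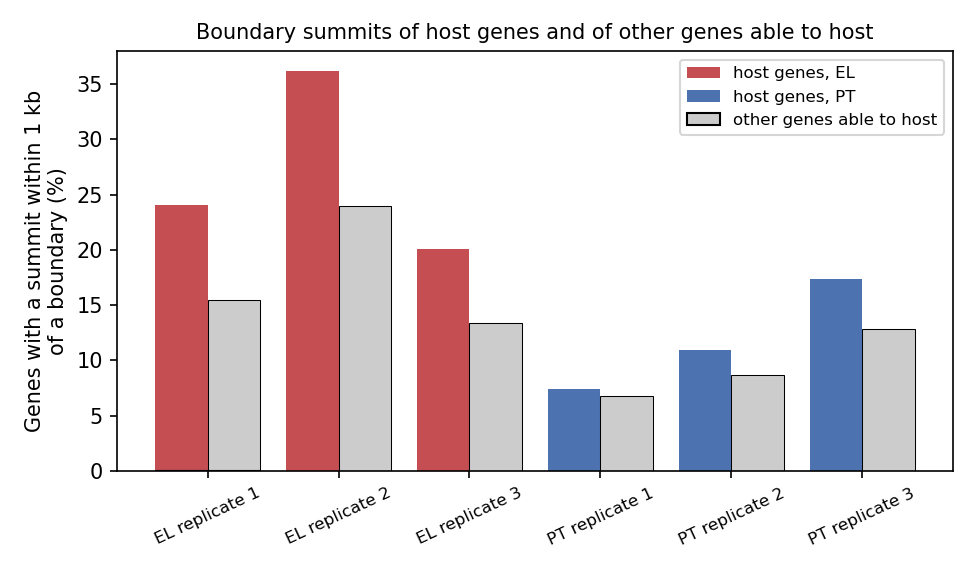
Share of genes with a summit within 1 kb of either boundary (y axis, percent) in each library: the 523 host genes (coloured bars, red for EL and blue for PT) and the other 13286 genes with room for a region (grey bars). Host bars range from 20.1 to 36.1% in EL and from 7.46 to 17.4% in PT, and each lies above its grey neighbour.

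How well a further library would have found these regions differed by library. With the merged regions kept as they were and EL replicate 1, 2 or 3 left out, the rule gave 906, 645 or 1101 regions, of which the library left out held a summit in 613, or 67.7%, 95.0% and 55.7%. For shared regions the same shares were 97.2%, 98.9% and 80.7%. Leaving out PT replicate 1, 2 or 3, it gave 627, 641 or 758 regions, of which that library held a summit in 2.23%, 4.37% and 19.1%. One step outside the rule stood 187 distal regions inside genes with summits in all 3 EL and 1 PT library, and 813 with summits in 2 EL and no PT library. The absence of a PT summit is the absence of a call in these lists, not a measured lack of binding: the read depth is unknown, and the lists hold no value below the calling threshold.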

How the data were processed

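The authors deposited 1 list of ZFP281 summits per library, each with a position and a score. The score is read here as −log10 of a q-value: it is deposited without a unit, and its lowest value over all lists lies just above −log10 of 0.05. Per the submitters' processing notes, Bowtie2 2.3.4.3 and Picard were used with build mm10; which peak caller was run is not given in the sources used here. Lists were called per library, and per the labels' protocols reads were paired 150 bp; read depth is unknown.

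Summits of the 19 autosomes and of X and Y were merged at up to 200 bp and placed against 21887 RefSeq protein-coding genes of GRCm38.p6 (Python 3.11.15, pandas 2.3.3, scipy 1.17.1), with every base of a region over 5 kb from each boundary. A gene had room where at least 1 of its bases did. The placing was tested on simulated regions. Group differences were tested by exact permutation over libraries. No genome was given, so the planned motif search over the regions was replaced by one in RefSeq start windows of 300 bases, a table without chromosome 18.

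The regions and the 19 gene lists were chosen with earlier results of these data known. Named genes are the 10 regions with the highest lowest EL percentile, the 5 hosts with most regions, up to 4 hosts per list, the 5 highest-ranked hosts with boundary summits in EL alone, and the 2 nearest and 2 farthest from a boundary. Some genes and lists chosen this way are not reported here.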

Additional observations from a re-analysis of the deposited data

How the results depend on the processing

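Summits were merged anew under each alternative. The count of 613 regions in 523 hosts held within 1.5 times over distance limits of 2 and 10 kb, all annotated genes, autosomes alone, a score of at least 5, merging at 500 or 1000 bp, and the region's midpoint in place of every base (617 regions in 526 hosts, chosen after seeing the data). It moved to 270 regions in 263 hosts at a score of at least 10, to 149 in 140 at equal list lengths, and to 339 in 326 when merging at 50 bp. Leaving out 1 library gave 627 to 1098 regions in 536 to 846 hosts; without EL replicate 3 there were 1098 in 846. Of the main 613, 113 were among the 149, and 172 among the 270.

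The difference of 3.89 percentage points in the distal share ranged from 2.81 to 4.67 with 1 library left out. It turned to -1.34 with the 613 regions left out (21.5% in EL, 22.8% in PT, exact permutation p = 0.6), which by construction lowers EL alone. The EL minus PT difference in hosts with a boundary summit, 14.9 percentage points, was 10.2 to 18.2 with 1 library left out, 23.7 at a reach of 5 kb and 0.956 at equal list lengths. The difference of -3.54 in summits near a start was -4.63 to -2.33 with 1 library left out and turned to 1.08 at equal list lengths; the cause was not tested.

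Same-numbered EL and PT libraries deviated from their groups with correlations of -0.0721, 0.0153 and 0.0731, and differently numbered ones with -0.128 to 0.139. Correlations this small cannot decide whether same-numbered libraries were handled together. With the replicate block the distal share difference was 3.89 (exact permutation p = 0.25, the smallest that 8 relabellings allow). The start share difference was then -3.54 (exact permutation p = 0.25). The planned motif windows around the regions were not run, for want of a genome. Depth is unknown, so no floor on undetected binding in PT can be given.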

Other observations

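Region density differed between chromosomes. Per Mb of eligible sequence there were 1.32 EL-only distal regions on chromosome 11 and 1.07 on chromosome 19, against 0.717 over all; chromosomes 13 and 3 had 0.348 and 0.350, the X chromosome 0.183 (7 regions) and the Y chromosome 0. Shared distal regions were also densest on chromosome 11, at 0.602 per Mb, and were at 0.0524 per Mb on the X.

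Some regions lay beside noncoding genes. Of the 613, 53 were inside the span of a long noncoding RNA gene and 24 within 1 kb of a noncoding gene's boundary. Of 1005 miRNA hairpins in the RefSeq table, 4 lay within 1 kb of a region, at 3 regions. The matching counts over all distal regions inside genes are not given here, so these numbers show no excess beside noncoding genes or hairpins. The region in Dnm1 (the dynamin 1 gene, chr2:32318132-32318183, percentiles of at least 35.9 in each EL library) was 277 bp from the Mir199b hairpin (chr2:32318460-32318569, plus strand) and 82 bp from that of miR-3154. Dnm1 is among the 23 hosts whose boundary had summits in all 3 EL and no PT library. The mature miR-199b-3p is shown with its seed, bases 2 to 8, in capitals, since it is the product of the hairpin beside this region.

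miR-199b-3p: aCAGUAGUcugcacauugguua

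The other hairpins were Mir3086 in Hspa12a, 582 bp from its region, and Mir6976 in Srf, the gene of serum response factor, 607 bp away.

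Of the hosts, 8 also held a PT-only distal region. In Bahcc1, Actn4 and Rara a PT summit lay 285 to 452 bp from the nearest EL-only region, and in Ncs1, Hk1, Wnt5b and Adcy5 the nearest PT summit was 4301, 13402, 15024 and 38196 bp away.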
